A study of Danio rerio with 4 samples.

Results

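This account covers 10 genes of cellular phosphate handling in zebrafish, read in sorted larval blood cells of smu07 mutants and of their siblings. They were chosen by gene symbol from known families, with earlier results of these data known. The families are the SLC20 phosphate importers slc20a1b, slc20a1a and slc20a2, the XPR1 phosphate exporters xpr1a and xpr1b, the ANKH paralogs ankha and ankhb, and the inositol hexakisphosphate kinases ip6k1, ip6k2a and ip6k2b. All 10 symbols were found among the 30838 rows of the deposited table. The series title names slc20a1b as the gene under study.

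Cells take up inorganic phosphate together with sodium through SLC20 transporters, and in animals XPR1 is the known route for phosphate export. In mammals XPR1 senses inositol pyrophosphates through its SPX domain. Inositol hexakisphosphate kinases make those signalling molecules by adding a phosphate to inositol hexakisphosphate. ANKH, another membrane protein, is needed in mammals for the release of ATP and pyrophosphate from cells.

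The libraries came from AB strain larvae at 4 days post fertilization, whose cells were dissociated and sorted for low cd41:eGFP signal, a gate that holds hematopoietic stem and progenitor cells (HSPCs). The groups were 2 libraries of smu07 mutants and 2 libraries of siblings, each from about 500 cells whose cDNA was amplified. All 4 carry the cd41:eGFP reporter, the labels do not describe the smu07 lesion, and the sibling genotypes are given only as sibling, with wild type named in the study design. The labels do not tie the libraries of a group to different clutches or sorting runs. The p-values therefore rest on the spread among these 4 libraries alone, and that spread may be technical.

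Values are in TPM, a transcript level that takes account of gene length and of the size of each library. The reads behind them were recovered from ratios between libraries as the smallest whole numbers that fit, so a gene's reads may be too low by a factor common to all libraries. They came to 28274779 and 29948918 in the mutant libraries, against 25102929 and 26598635 in the sibling libraries. All 10 HSPC markers checked were above 0 in at least 1 library of each group, with summed levels of 565 to 584 TPM in mutants and 623 to 693 TPM in siblings. Of these 10 markers 2 were higher and 4 lower in the mutants, and the sum held much cebpa, at 244 to 278 TPM in mutants and 161 to 209 TPM in siblings. Marker levels of several other cell types differed between the groups as well. Beside these marker counts, 9.91% of all 12073 genes tested were higher and 18.6% lower, by the test described below. Summed TPM over 10 macrophage markers was 789 to 813 in mutants and 273 to 304 in siblings (5 of 6 tested were higher). Most of this sum was ctsl.1, at 558 to 564 TPM in mutants and 151 to 189 TPM in siblings. Listed at 0 were c1qa and c1qc in all libraries, c1qb in both mutant libraries and mpeg1.1 in both sibling libraries. Over 10 keratinocyte markers the sum was 165 to 258 in mutants and 32.5 to 44.3 in siblings (6 of 6 tested were higher), with epcam listed at 0 in all libraries and krt91 in both sibling libraries. The gene icn supplied most of it, at 113 to 179 TPM in mutants and 27.6 to 43.2 TPM in siblings. Over 9 thrombocyte markers the sum was 820 to 985 in mutants and 1813 to 2014 in siblings. Of the 9 tested 5 were lower and 1 higher, with no marker at 0 in both libraries of a group. This sum was mainly 1 gene, blf, at 554.6 to 754.6 TPM in mutants and 1414 to 1637 TPM in siblings. Over 9 erythroid markers the sum was 218 to 320 in mutants and 643 to 1142 in siblings (6 of 7 tested were lower), with gata1a at 0 in both mutant libraries and alas2 at 0 in both sibling libraries. Its most abundant marker, hbbe1.1, had 76.9 to 128 TPM in mutants, and 768 and 231 TPM in sibling replicates 1 and 2. Over 8 neutrophil markers the sum was 1465 to 1675 in mutants and 836 to 956 in siblings (2 of 7 tested were higher), with none at 0 in both libraries of a group. The most abundant of these, ncf1, had 615 to 641 TPM in mutants and 430 to 538 TPM in siblings. Over 9 chondrocyte and osteoblast markers the sum was 15.7 to 20.3 in mutants and 3.35 to 6.22 in siblings (2 of 2 tested were higher). It was largely sox9a, at 12.6 to 15.1 TPM in mutants and 2.65 to 3.83 TPM in siblings. Markers col2a1a, col1a1a and bglap were at 0 in all libraries and col10a1a in both sibling libraries. Muscle markers summed to 10.6 to 12.1 TPM in mutants and 5.54 to 7.45 TPM in siblings (2 of 4 tested were higher), with ckma, myog and tnni2b.1 at 0 in all libraries. Of these, actc1b was the most abundant, at 3.91 to 5.30 TPM in mutants and 3.97 to 4.25 TPM in siblings. T cell markers summed to 896 to 927 TPM in mutants and 718 to 874 TPM in siblings (1 of 6 tested was higher and 3 lower). That sum mostly followed 1 gene, ccr9a, at 777 to 810 TPM in mutants and 569 to 731 TPM in siblings. In this list lck was at 0 in all libraries, cd4-1 in both mutant libraries and rag1 in both sibling libraries. Endothelial markers summed to 135 to 140 TPM in mutants and 158 to 166 TPM in siblings (2 of 4 tested were higher and 1 lower), with lyve1b at 0 in all libraries and cdh5 in both sibling libraries. The greater part was fli1a, at 108 to 115 TPM in mutants and 104 to 115 TPM in siblings. In bulk libraries, fewer cells of a type and less RNA per cell cannot be told apart, and the part of these shifts in the results that follow was not tested.

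One member of each family, or in the kinases a pair, carried nearly all of that family's transcript. The 5 members with a mean of at least 1 TPM were tested, namely slc20a1b, xpr1b, ankhb, ip6k2a and ip6k2b. The other 5 lay at or below 1.46 TPM in every library and were too low for the test. With limma on log2(TPM + 1) and Benjamini-Hochberg adjustment over 12073 genes, ip6k2b was higher in the mutants, xpr1b and ankhb were lower, and slc20a1b and ip6k2a did not pass. Calls were frequent in this comparison: 28.5% of all genes tested passed at an adjusted p under 0.05, 9.91% higher and 18.6% lower. The groups' libraries did not overlap for 4 of the 5 members tested, against 70.0% of all genes tested. The median log2 difference was 0.068 over the 5 members and -0.14 over all genes tested.

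**Figure D1:**
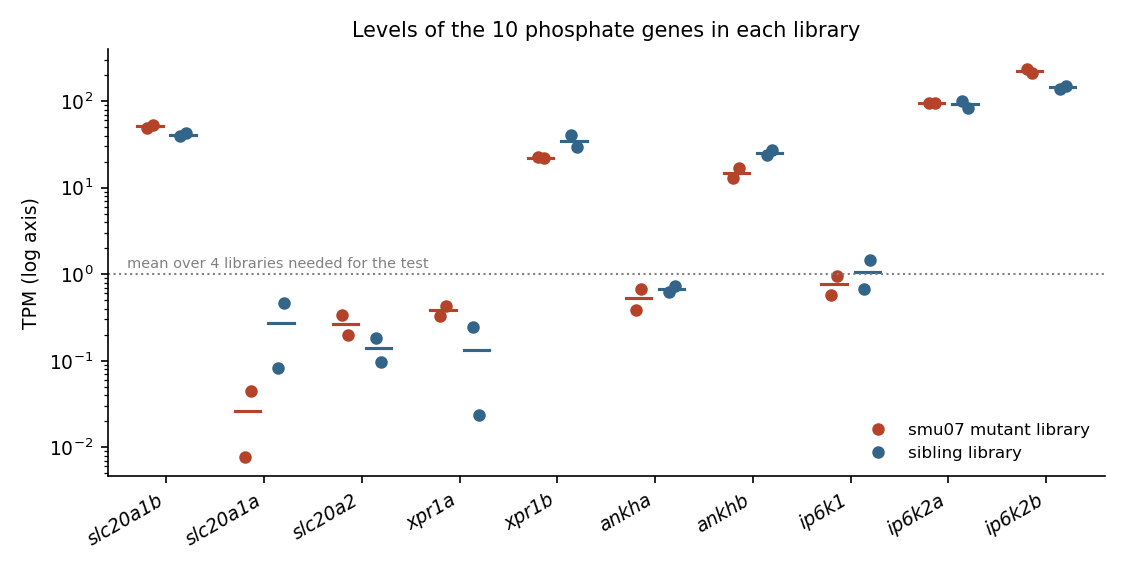
TPM of each of the 10 members on a log axis, with 1 point per library and a short line at the group mean, mutants left of siblings; the dotted line is the mean of 1 TPM needed for the test. In each family 1 gene, or the ip6k2 pair, stands far above its paralogs, and slc20a1b sits slightly higher in the mutant libraries (49.3 and 53.8 TPM) than in the sibling libraries (39.3 and 42.4 TPM).

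Among the importers, slc20a1b encodes a sodium-dependent phosphate transporter of the PiT1 type. Its level was 49.3 and 53.8 TPM in the mutant libraries, against 39.3 and 42.4 TPM in the sibling libraries, from 2308 and 2660 reads in mutants and 1559 and 1762 reads in siblings. Both mutant libraries were above both sibling libraries. The log2 difference was 0.33 (SE 0.12, 95% interval 0.04 to 0.61 before adjustment, limma adjusted p = 0.0827), which did not pass the threshold. It passed when the scaling was changed, at 0.43 under median-of-ratios scaling, 0.56 under quantile normalization, 0.47 after rescaling without mitochondrial ribosomal RNA and ribosomal protein genes, and 0.45 with voom on the recovered reads (limma adjusted p = 0.0406, 0.0218, 0.0402 and 0.0261). Over all genes tested, 1397, 1329, 1550 (of 13499) and 1613 were called higher in these settings, against 1196 as reported. The slc20a1b difference was positive under all 14 alternatives, but 10 of them did not pass. Among these were no filter on low values (limma adjusted p = 0.0987), no mean-variance trend (limma adjusted p = 0.152) and leaving out any 1 library. The transcript was thus no lower in the libraries labelled mutant, and since the lesion is not given its level could not check the labels.

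The other importers were scarce. The slc20a1a paralog had 0.0078 and 0.044 TPM in the mutant libraries, from 1 and 6 reads, and 0.083 and 0.466 TPM in the sibling libraries, from 9 and 53 reads. The mutant libraries were below the sibling libraries, but the sibling pair itself spanned 9 to 53 reads at similar depth. The slc20a2 paralog, of the PiT2 type, had 0.335 and 0.201 TPM in mutants, from 74 and 47 reads, and 0.182 and 0.097 TPM in siblings, from 34 and 19 reads. With no filter on low values, neither difference passed (slc20a1a -0.30, limma adjusted p = 0.296, and slc20a2 0.15, limma adjusted p = 0.298). Of the summed SLC20 transcript, slc20a1b made up 99.3 and 99.5% in the mutant libraries, against 99.3 and 98.7% in the sibling libraries, so no paralog stood at a comparable level in either group.

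Across all 401 rows whose symbol names a solute carrier (slc), slc20a1b ranked at place 14 by mean TPM over the 4 libraries, while slc20a2 ranked at 267 and slc20a1a at 279. Of the 197 slc genes tested, 30 were higher and 30 lower in the mutants (30.5%), with a median log2 difference of -0.03. The genes most like slc20a1b in level and profile, by root-mean-square distance on log2(TPM + 1) over the 4 libraries, were si:ch1073-392o20.2 at 0.028, serbp1b at 0.071, abcc5 at 0.08, kpnb3 at 0.091 and gfer at 0.097, out of 7336 candidates with a mean of at least 5 TPM. For example, abcc5 stood at 52.7 and 53.0 TPM in mutants and 36.0 and 43.5 TPM in siblings. Likeness over 4 libraries is a description of level and says nothing of function.

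Of the exporters, xpr1b carried the transcript. It stood at 22.5 and 21.9 TPM in the mutant libraries, against 40.5 and 29.3 TPM in the sibling libraries (1725 and 1775 reads in mutants, 2631 and 1997 reads in siblings). Both mutant libraries were lower than both siblings, the mutant pair nearly coincided, and the sibling pair was further apart. The log2 difference was -0.61 (SE 0.18, limma adjusted p = 0.0476), just past the threshold. The direction held under all 14 alternatives, but 11 of them ended the call. Among these were median-of-ratios scaling (-0.52, limma adjusted p = 0.0879) and quantile normalization (-0.40, limma adjusted p = 0.167). Rescaling without mitochondrial ribosomal RNA and ribosomal protein genes (-0.48, limma adjusted p = 0.107) and voom on the recovered reads (-0.52, limma adjusted p = 0.0568) ended it too. The difference shrank to -0.39 without sibling replicate 1, the higher of that pair (limma adjusted p = 0.0683), and was -0.84 without sibling replicate 2 (limma adjusted p = 0.00254). It was -0.63 without mutant replicate 1 and -0.60 without mutant replicate 2, where few genes of any kind were called. The paralog xpr1a had 0.331 and 0.431 TPM in mutants, from 16 and 22 reads, and 0.244 and 0.023 TPM in siblings, from 10 and 1 reads, and did not pass with no filter on low values (0.29, limma adjusted p = 0.202). Of the summed XPR1 transcript, xpr1b made up 98.5 and 98.1% in mutants and 99.4 and 99.9% in siblings.

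The ANKH paralogs showed the same split between an abundant and a scarce gene. The abundant one, ankhb, fell to 12.9 and 16.98 TPM in the mutant libraries, against 23.9 and 27.1 TPM in the sibling libraries, from 703 and 976 reads in mutants and 1101 and 1308 reads in siblings. The groups did not overlap. The log2 difference was -0.74 (SE 0.17, limma adjusted p = 0.0274). It was negative under all 14 alternatives, and 6 of them ended the call. These included quantile normalization (-0.54, limma adjusted p = 0.0662) and rescaling without mitochondrial ribosomal RNA and ribosomal protein genes (-0.62, limma adjusted p = 0.0573). They also included leaving out mutant replicate 1 (-0.56) or mutant replicate 2 (-0.93), where few genes of any kind were called. The scarce paralog, ankha, had 0.382 and 0.675 TPM in mutants and 0.627 and 0.729 TPM in siblings, from 23 and 43 reads in mutants and 32 and 39 reads in siblings, and its groups overlapped. The ankhb share of summed ANKH transcript was 97.1 and 96.2% in mutants and 97.4 and 97.4% in siblings.

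The inositol hexakisphosphate kinases were the most abundant of the 4 families, and ip6k2b rose in the mutants. It reached 238 and 212 TPM in the mutant libraries, against 140 and 151 TPM in the sibling libraries, from 11406 and 10725 reads in mutants and 5687 and 6404 reads in siblings. Every mutant library was at least 1.406 times every sibling library. The log2 difference was 0.62 (SE 0.10, limma adjusted p = 0.0114), and the call held in 12 of 14 alternatives. It was lost without mutant replicate 1 (0.54, limma adjusted p = 0.123) and without mutant replicate 2 (0.71, limma adjusted p = 0.0954), where few genes of any kind were called.

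The paralog ip6k2a had 96.6 and 95.9 TPM in the mutant libraries, against 101 and 83.4 TPM in the sibling libraries, from 8361 and 8767 reads in mutants and 7405 and 6403 reads in siblings. Its mutant libraries lay between its sibling libraries. The log2 difference was 0.07 (95% interval -0.23 to 0.37, limma adjusted p = 0.703), and its sign turned without sibling replicate 2 (-0.07). The third kinase gene, ip6k1, had 0.571 and 0.954 TPM in mutants, from 34 and 60 reads, and 0.674 and 1.46 TPM in siblings, from 34 and 77 reads, with overlapping groups. Summed over the 3 kinases the level was 335 and 309 TPM in mutants and 242 and 235 TPM in siblings, of which ip6k2b made up 71.0 and 68.6% in mutants and 57.9 and 64.0% in siblings.

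**Figure D2:**
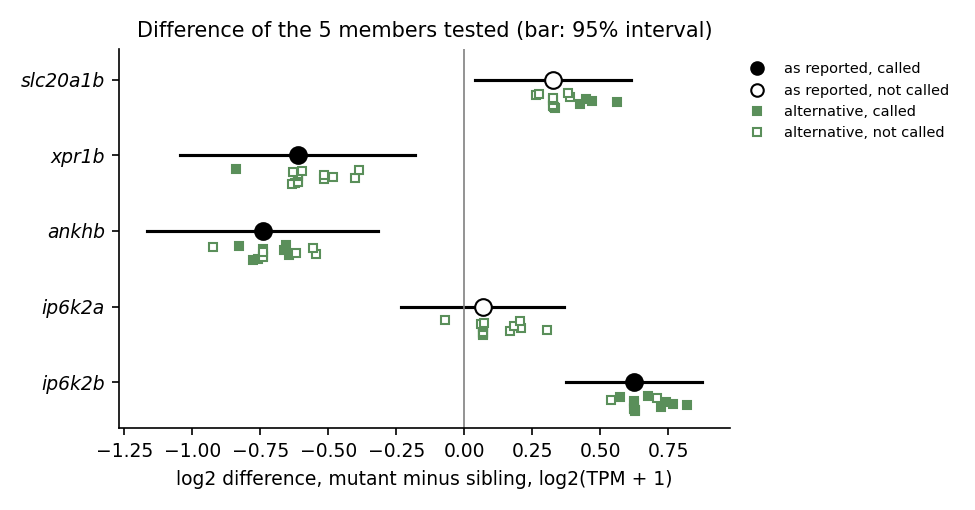
Log2 difference, mutant minus sibling, of the 5 members tested, on the log2(TPM + 1) scale; circles are the reported values with 95% intervals, squares the 14 alternatives, and filled symbols passed at an adjusted p under 0.05. The alternatives of ip6k2b lie between 0.54 and 0.82 and those of xpr1b between -0.84 and -0.39, whereas those of ip6k2a fall on both sides of 0.

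The scale of the whole library bears on each of these values. Mitochondrial ribosomal RNA and ribosomal protein transcripts made up 41.2 and 41.5% of each mutant library, against 35.5 and 35.0% of each sibling library, and rescaling without them gave a median log2 difference of 0.0086 over the 13499 genes that then averaged 1 TPM or more, against -0.14 over 12073 genes as deposited. Relative to the median of all genes tested as deposited, slc20a1b stood at 0.47, ip6k2b at 0.76, ip6k2a at 0.21, xpr1b at -0.47 and ankhb at -0.60. Since such a rescaling applies 1 factor per library, it shifts all log2 differences nearly alike.

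Ratios between members within a library do not depend on any factor that scales the whole library, although quantile normalization, which is no single factor, would change them. Summed SLC20 transcript was 2.18 and 2.42 times summed XPR1 transcript in the mutant libraries, against 0.973 and 1.47 times in the sibling libraries. Importer and exporter transcripts were thus near parity in TPM in sibling replicate 1, and importer transcript exceeded exporter transcript in the other 3 libraries. This order rests on the gene lengths behind TPM. In recovered reads xpr1b exceeded slc20a1b in both sibling libraries (2631 and 1997 against 1559 and 1762). The log2 ratio of summed TPM differed by 0.94, and by 0.65 to 1.24 as each library was left out. An exact two-sided permutation test gave p = 0.333, which is the smallest value that 2 against 2 libraries allow.

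The same comparison for the kinase paralogs gave ip6k2a at 0.406 and 0.453 times ip6k2b in the mutant libraries, against 0.721 and 0.554 times in the sibling libraries. The log2 ratio was lower by 0.56 in the mutants (mean -1.22 in mutants and -0.66 in siblings), without overlap and with the same smallest exact permutation p = 0.333. The difference was -0.37 without sibling replicate 1 and ranged from -0.75 to -0.37 as each library was left out. That ip6k2a stood below ip6k2b in sibling replicate 1 rests on the gene lengths behind TPM. In recovered reads that library had 7405 for ip6k2a, against 5687 for ip6k2b. Sibling replicate 2 had nearly equal reads, 6403 for ip6k2a and 6404 for ip6k2b. Ratios of the scarce to the abundant exporter or ANKH gene rest on few reads. The xpr1a level was 0.0147 and 0.0197 times that of xpr1b in mutants and 0.00604 and 0.000796 times in siblings, where 1 sibling library had a single xpr1a read. The log2 difference of that ratio was 2.96, and it ranged from 1.496 without sibling replicate 2 to 4.42 without sibling replicate 1. The ankha level was 0.0295 and 0.0398 times that of ankhb in mutants and 0.0262 and 0.0269 times in siblings, a log2 difference of 0.37 that was 0.15 without mutant replicate 2 and 0.58 without mutant replicate 1.

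**Figure D3:**
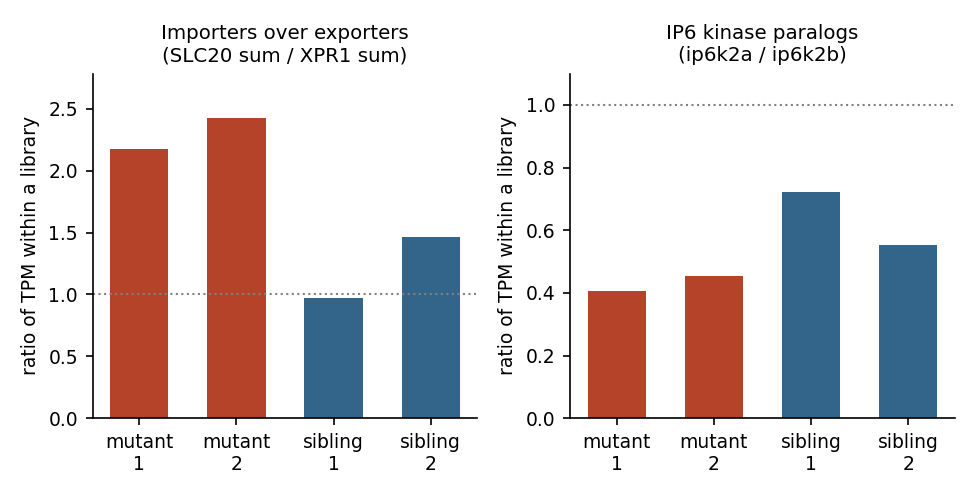
Ratio of TPM within each library, for summed SLC20 over summed XPR1 transcript (left) and for ip6k2a over ip6k2b (right), with 1 bar per library, mutants left of siblings, and a dotted line at equal levels. The importer to exporter ratio is 2.18 and 2.42 in mutants and 0.973 and 1.47 in siblings, and the kinase ratio stays under 1 in every library.

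Ordered by level per length, the members ran ip6k2b, ip6k2a, slc20a1b, xpr1b and ankhb in both groups. In the mutant libraries no neighbours in that order overlapped. In the sibling libraries slc20a1b (39.3 to 42.4 TPM) and xpr1b (29.3 to 40.5 TPM) overlapped, while the other neighbours among these 5 did not. Among the scarce members most neighbours in the order overlapped. The exceptions were slc20a2 (0.201 to 0.335 TPM) above slc20a1a (0.0078 to 0.044 TPM) in the mutants, and ankha (0.627 to 0.729 TPM) above slc20a1a (0.083 to 0.466 TPM) in the siblings. Within each of the 4 libraries, ankha also lay above slc20a2, slc20a1a and xpr1a.

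Other genes of phosphate handling were taken as 4 lists with 99 symbols, of which 89 were in the table and 40 were tested. Of these 40, 4 were higher, 3 were lower and 33 did not pass (17.5% called, against 28.5% of all genes tested), and their median log2 difference was -0.04. Among 13 inositol phosphate enzymes tested, 6 had a log2 difference above 0 and 7 below, with a median of -0.31. An unadjusted limma p under 0.05 was found for 3 of the 13, all below 0, against 5238 of all 12073 genes tested. After adjustment 0 were higher and 1 was lower. That gene, itpkcb, an inositol trisphosphate kinase, had 14.7 and 15.01 TPM in mutants and 21.4 and 22.6 TPM in siblings (log2 difference -0.54, limma adjusted p = 0.031), a call that 7 of 14 alternatives ended. The most abundant enzyme of the list, the inositol monophosphatase gene impa1, had 46.1 and 58.5 TPM in mutants and 68.8 and 60.9 TPM in siblings and did not pass. The kinases that act beside the members on inositol pyrophosphates, ppip5k1a and ppip5k2, did not pass either (log2 differences -0.40 and 0.07).

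Among 11 other phosphate carriers tested, 2 were higher and 1 lower, with a median log2 difference of 0.10. The mitochondrial ATP-Mg/phosphate carrier gene slc25a25a had the smallest p of the 4 lists. It stood at 48.7 and 44.8 TPM in mutants, against 19.0 and 21.4 TPM in siblings (log2 difference 1.17, SE 0.13, limma adjusted p = 0.00568). The sugar phosphate and phosphate exchanger gene slc37a2 rose to 44.0 and 38.4 TPM in mutants, against 25.7 and 24.97 TPM in siblings (0.68, limma adjusted p = 0.0157). The vesicular nucleotide transporter gene slc17a9b fell to 8.35 and 8.21 TPM in mutants, against 12.4 and 15.1 TPM in siblings (-0.66, limma adjusted p = 0.0323), and 6 of 14 alternatives ended that call. The main mitochondrial phosphate carrier gene, slc25a3b, was the most abundant of all phosphate genes examined, at 1043 and 837 TPM in mutants and 954 and 916 TPM in siblings. Its groups overlapped, and its log2 difference had a 95% interval of -0.28 to 0.28.

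Among 13 genes of pyrophosphate and phosphate ester turnover tested, 1 was higher and 1 lower, with a median log2 difference of -0.33. The gene enpp1, whose enzyme makes pyrophosphate from ATP outside the cell, rose to 40.7 and 46.9 TPM in mutants, against 26.7 and 30.4 TPM in siblings (log2 difference 0.60, limma adjusted p = 0.0255). Of 14 alternatives 4 ended that call, among them no filter on low values (limma adjusted p = 0.0599) and no mean-variance trend (limma adjusted p = 0.0563). The soluble pyrophosphatase gene ppa1b fell to 191 and 231 TPM in mutants, against 289 and 268 TPM in siblings (-0.40, limma adjusted p = 0.0488). That call ended in 12 of the 14 alternatives. Of the hormone axis of phosphate, 3 of 26 genes were tested and 1 passed. It was the stanniocalcin gene stc2a, at 4.43 and 3.42 TPM in mutants and 0.794 and 1.33 TPM in siblings (1.26, limma adjusted p = 0.0167, with 2.002 under voom on the recovered reads, and a call that 3 of 13 alternatives ended), whereas the vitamin D receptor gene vdra, at 16.6 and 13.4 TPM in mutants and 20.1 and 17.2 TPM in siblings, did not pass. Leaving out either mutant library ended nearly every call among all genes, so the loss of the 7 list calls there says little about these genes.

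**Figure D4:**
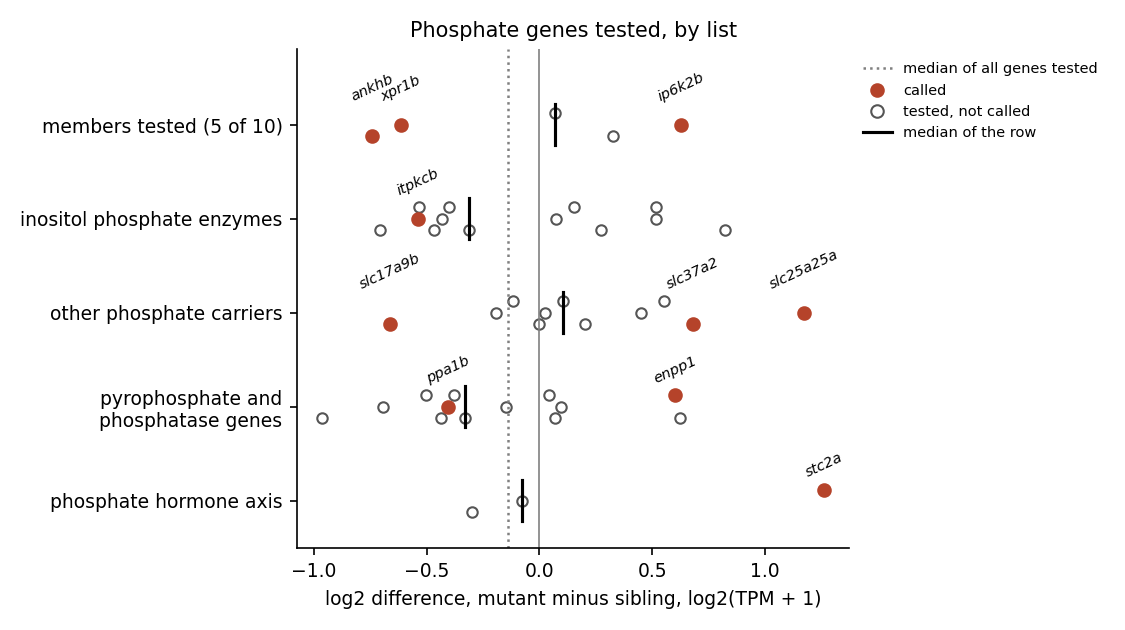
Log2 difference, mutant minus sibling, on the log2(TPM + 1) scale, of the 5 members and of the 40 other phosphate genes tested, by list; filled points passed at an adjusted p under 0.05, black bars are row medians and the dotted line is the median of all genes tested (-0.14). The called genes lie on both sides of 0, with stc2a and slc25a25a farthest to the right.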

How the data were processed

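Expression was measured in 2 mutant and 2 sibling libraries. The authors deposited 1 table of TPM values with 30838 rows named by gene symbol; the submitters' processing notes list STAR, featureCounts, FastQC and DESeq2 and the build GRCz11. Their versions and roles, and the annotation, are not stated in the sources used here. Such values carry no depth, and since each library sums to the same total, more transcript of abundant genes leaves less for the rest. The members matched 10 of 10 symbols in the RefSeq annotation of GRCz12tu, used for names and gene order only.

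Whole reads were recovered from ratios of TPM between libraries (tolerance 0.0001) for all 23927 rows above 0 in at least 2 libraries; 2178 rows above 0 in 1 library are missing from the totals. A factor shared by all reads of a gene was restored in 1468 rows from the implied gene length and may be lost in others. The labels' protocols name amplified cDNA and no molecular identifiers, so reads may be copies of the same molecule.

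The 12073 genes averaging 1 TPM or more were tested across the whole table with limma 3.58.1 in R 4.3.3 (lmFit, eBayes with a mean-variance trend) on log2(TPM + 1), which understates changes of low genes, with Benjamini-Hochberg adjustment and a threshold of 0.05. The method was run on simulated data with few changed genes and larger changes than the tested members showed. That run does not show how well differences of the members' size are found. Alternatives were other pseudocounts, filters and scalings, no trend, voom on recovered reads scaled by a trimmed mean of log ratios, the sample number as a block, and leaving out each library, where a lone library is assumed to vary like the other group. The members and lists were chosen with earlier results of these data known. Named are all members, up to 4 called genes and the most abundant gene of each list, and the 5 genes most like slc20a1b; ppip5k1a and ppip5k2 were named after their values were seen.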

Additional observations from a re-analysis of the deposited data

How the results depend on the processing

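All of these are fits with limma. Of all 12073 genes tested, 1196 were higher and 2247 lower as reported. With a mean of at least 5 TPM, 778 of 7337 genes were higher and 2195 lower. Genes lower numbered 1124 of 26105 with no filter on low values and 1390 of 12073 under quantile normalization. They numbered 1314 of 13499 after rescaling without mitochondrial ribosomal RNA and ribosomal protein genes. Among the members, 2 were higher under median-of-ratios scaling, quantile normalization, that rescaling and voom on recovered reads. The one added was slc20a1b (log2 differences 0.43, 0.56, 0.47 and 0.45). Over all genes tested, 1397 of 12073, 1329 of 12073, 1550 of 13499 and 1613 of 12068 were higher in these settings. Members lower numbered 1 with a pseudocount of 0.1 TPM, median-of-ratios scaling and voom. Over all genes, 2175 of 12073, 1656 of 12073 and 1805 of 12068 were lower there. Members lower numbered 0 with no filter, quantile normalization, the rescaling and no trend (1541 of 12073 genes lower). In those last settings 4 of 10, 3 of 5, 4 of 6 and 3 of 5 members tested had an unadjusted p under 0.05. Over all genes tested the counts were 8525 of 26105, 4700 of 12073, 5233 of 13499 and 4980 of 12073. Other phosphate genes lower numbered 1 with no filter, median-of-ratios scaling and quantile normalization, and 0 after the rescaling. There 14 of 46 tested had an unadjusted p under 0.05, against 5233 of 13499 genes. The log2 difference of slc25a3b, near 0, changed sign under median-of-ratios scaling (0.10), quantile normalization (0.040), the rescaling (0.14) and voom (0.11).

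As each library was left out, genes higher ranged from 0 to 2044 and genes lower from 3 to 3206, members higher from 0 to 1 and lower from 0 to 2, and other phosphate genes higher from 0 to 7 and lower from 0 to 9. The lowest counts came without mutant replicate 1 or 2, where 2899 and 3129 genes, 2 and 2 members and 4 and 7 other phosphate genes had an unadjusted p under 0.05. The difference of slc20a1b then ranged from 0.27 to 0.39, of ip6k2a from -0.069 to 0.20 and of slc25a3b from -0.16 to 0.16.

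Same-numbered libraries did not deviate together (r = -0.046 across 12073 genes). With 2 libraries per group this is a single comparison, which cannot show whether the numbers pair the samples. With the replicate block 981 genes were higher and 1682 lower, and members higher numbered 1 and lower 1 (xpr1b missed, limma adjusted p = 0.052). Other phosphate genes higher numbered 4 and lower 0, with 10 of 40 at an unadjusted p under 0.05, against 4873 of 12073 genes. The slc20a1b difference did not pass (limma adjusted p = 0.124). Depth limits the scarce members: slc20a1a and xpr1a had as few as 1 read in a library.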

Other observations

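The RefSeq gene order gave the rows that lie beside slc20a1b on its chromosome, a set chosen after the data were seen. Of the 20 nearest rows of the table, 10 on each side, 8 had a mean of at least 1 TPM and were tested with limma, and 2 passed, both lower in the mutants. The direct neighbour stard7, which encodes a phosphatidylcholine transfer protein, had 17.95 and 17.7 TPM in the mutant libraries and 44.5 and 48.3 TPM in the sibling libraries (log2 difference -1.33, limma adjusted p = 0.00404). The AMP-activated kinase subunit gene prkab1a had 5.84 and 7.30 TPM in mutants and 15.2 and 14.96 TPM in siblings (-1.10, limma adjusted p = 0.0101). The share called, 2 of 8, is close to the 28.5% of all genes tested, and 6 of the 8 genes did not pass.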
